A study of Mus musculus with 55 samples.

Results

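Endothelial cells line every blood vessel of fat tissue, and 32 genes that mark them were followed here across 55 libraries of 3 mouse fat depots. The genes were chosen by name, as a list of known endothelial markers and regulators, but with earlier results of these data known. All 32 were found among the 31933 genes counted in each library. They cover adhesion and junction proteins, growth factor receptors, transcription factors, surface glycoproteins and the endothelial nitric oxide synthase.

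The libraries came from male C57BL/6NRj mice aged 10 weeks that drank corticosterone (GC) or placebo (Ctrl) for 4 weeks, housed either at 13 °C, a mild cold, or at 22 °C, room temperature. Corticosterone is the main glucocorticoid hormone of mice. Interscapular brown fat (iBAT) gave 5 GC and 5 Ctrl libraries at 13 °C, and 5 GC and 3 Ctrl libraries at 22 °C. Gonadal white fat (goWAT) gave 5 GC and 5 Ctrl libraries at 13 °C, and 5 GC and 4 Ctrl libraries at 22 °C. Subcutaneous white fat (scWAT) gave 4 GC and 5 Ctrl libraries at 13 °C, and 5 GC and 4 Ctrl libraries at 22 °C. Areas of frozen sections were cut out by laser, and about 2 ng of total RNA from each went into a full-length SMART-Seq2 library, in which cDNA is amplified before sequencing. No label names the animal behind a library, so areas may share one. The p-values measure only the spread between libraries, which may be technical, and are too small where areas share an animal.

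Endothelial cells keep blood and tissue apart and control what passes between them. Vascular endothelial growth factor acts on them through Kdr and Flt1, angiopoietins act through Tek, and the junction proteins Cdh5, Esam, Cldn5 and Pecam1 join neighbouring cells. Transcription factors of the ETS family (Erg, Fli1) and of the SOXF family (Sox7, Sox17, Sox18) hold the endothelial programme in place. Nos3 makes nitric oxide, which relaxes the vessel wall, and S1pr1, the receptor for sphingosine 1-phosphate, keeps junctions tight. In fat the capillary endothelium also takes up fatty acids released from lipoproteins, and brown fat is known for its dense capillary bed.

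Promoter sequences are shown for 3 members that recur below: Cldn5, the only member called higher under GC, Emcn, which fell in subcutaneous fat, and Kdr, which fell in gonadal fat. Each is the 250 bases before the transcription start in the RefSeq table for GRCm38.p6, written 5′ to 3′ on the gene's strand. Capitals mark AGGAAG or its reverse complement CTTCCT, a sequence that ETS factors bind.
Cldn5, chr16:18776597-18776846, plus strand: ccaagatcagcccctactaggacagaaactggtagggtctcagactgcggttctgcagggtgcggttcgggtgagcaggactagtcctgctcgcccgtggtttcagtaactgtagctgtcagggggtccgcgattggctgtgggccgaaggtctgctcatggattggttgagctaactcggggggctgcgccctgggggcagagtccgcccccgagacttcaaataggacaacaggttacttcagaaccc
Emcn, chr3:137340828-137341077, plus strand: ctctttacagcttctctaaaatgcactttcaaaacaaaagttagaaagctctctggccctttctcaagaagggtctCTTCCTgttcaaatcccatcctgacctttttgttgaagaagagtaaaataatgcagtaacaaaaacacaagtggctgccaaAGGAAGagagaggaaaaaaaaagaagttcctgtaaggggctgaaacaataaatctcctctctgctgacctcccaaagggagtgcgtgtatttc
Kdr, chr5:75978456-75978705, minus strand: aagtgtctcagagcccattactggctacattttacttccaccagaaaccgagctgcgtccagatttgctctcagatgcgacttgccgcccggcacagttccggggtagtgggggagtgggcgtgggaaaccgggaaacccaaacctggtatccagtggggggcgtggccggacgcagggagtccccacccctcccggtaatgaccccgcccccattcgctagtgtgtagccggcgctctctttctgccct
The Emcn stretch held 2 matches, 174 and 93 bases before the start, and those of Cldn5 and Kdr held none. ETS factors also bind other sequences around the shorter letters GGAA. Those letters stand in the Kdr stretch and were not searched, so no match does not mean no ETS site. The table had promoters for 14 of the 32 members. Over windows from 250 bases before to 50 after the start, AGGAAG or CTTCCT stood in 11 of their 18 promoters, those of 10 of the 14 genes, and in 35.4% of 32851 mouse promoters. AGAACA or TGTTCT, the core letters of a glucocorticoid receptor site, stood in 4 of the 18 promoters, those of 4 genes, and in 19.0% of all promoters, and in none of the 3 stretches printed. Both strands were searched. A match describes letters only.

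Brown fat libraries held 14043773 to 35790654 counts, gonadal ones 12310822 to 53121372 and subcutaneous ones 8622178 to 56450653. Variation between libraries of a group was high, with a biological coefficient of variation of 50.5% for iBAT, 49.99% for goWAT and 47.8% for scWAT. Several libraries stood apart. In goWAT, GC replicates 2 and 4 at 22 °C were treated as low quality. In replicate 2 the 10 most abundant genes held 41.1% of counts. In replicate 4 they held 18.7%, and mitochondrial genes held 9.87%, the most of any goWAT library. Replicate 4 had 23223 genes detected, more than GC replicate 1 (22565), so its label is less certain. GC replicate 1 carried brown adipocyte transcripts at both temperatures. In scWAT, GC replicates 2 and 3 at 22 °C were rich in macrophage transcripts, and 4 libraries at 13 °C held epithelial keratins. In iBAT, 2 libraries were rich in macrophage and 3 in skeletal muscle transcripts. Member calls that rest on such libraries are given with and without them. Values of changes not called, as in iBAT at 22 °C, and of the other gene lists are given with all libraries. Skeletal muscle markers also summed to as much as 2238 CPM in GC and 501 CPM in Ctrl libraries of scWAT at 22 °C. Those scWAT libraries were left out singly, but not as a muscle-rich set.

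Every one of the 32 genes had counts in every library and passed the filter on low counts in each depot, so none was lost before testing. Per kilobase of all exons of a gene merged, the median level of Cldn5, a tight junction protein, was the highest of the members in every depot, at 94.6 CPM (read counts scaled to library size) per kilobase in iBAT, 151 in goWAT and 114 in scWAT. Esam, an endothelial adhesion molecule, and S1pr1 were also near the top, S1pr1 at rank 4 in goWAT by this length and at rank 6 by that of its longest transcript. Vwf, the clotting factor stored in endothelial granules, was at the bottom in iBAT and scWAT, with 0.237 and 0.452 CPM per kilobase, and in goWAT Cyyr1 (0.638) was lowest by merged exons and Erg (0.857) by the longest transcript. The lowest count of any member in a library was 1, for Aplnr, the apelin receptor, in a GC library of iBAT at 13 °C. Within groups, the standard deviation of log2 CPM was smallest for Esam in iBAT (0.24), Pecam1 in goWAT (0.31) and S1pr1 in scWAT (0.27). It was largest for Plvap in iBAT (1.15) and goWAT (0.97) and for Erg in scWAT (0.71), so changes of these genes had to be larger to pass the test.

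**Figure D1:**
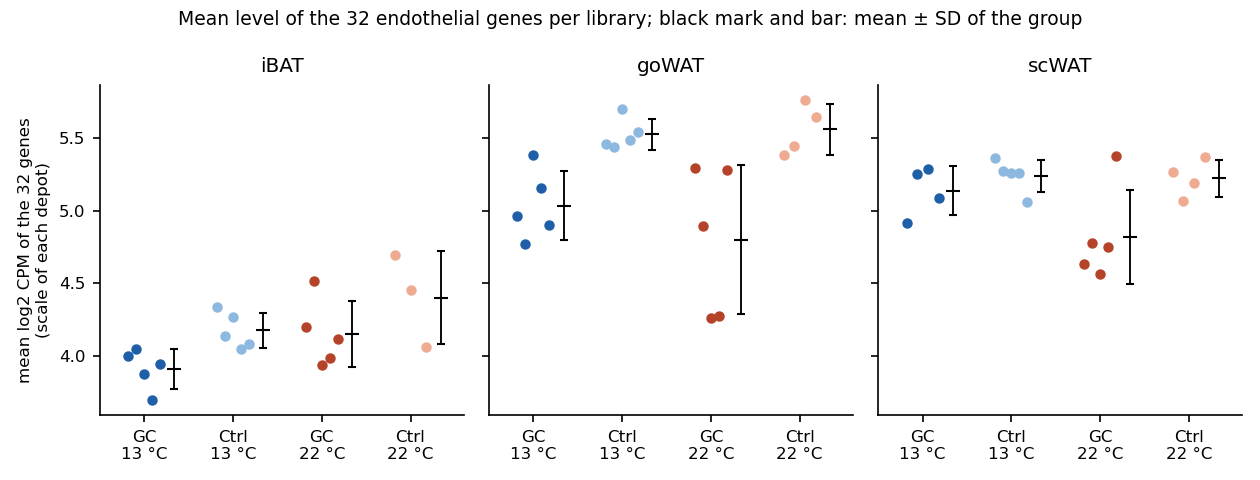
The vertical axis gives the mean log2 CPM of the 32 endothelial genes in each library and the horizontal axis the groups of each depot, GC left of Ctrl at each temperature. In goWAT at 13 °C the GC libraries lie between 4.77 and 5.38 and the 5 Ctrl libraries between 5.43 and 5.70.

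In goWAT at 22 °C, 6 of the 32 endothelial genes fell under GC and none rose: Nos3, S1pr1, Rasip1, Esam, Cyyr1 and Kdr. Genes are called changed where the adjusted p of edgeR's quasi-likelihood test, Benjamini-Hochberg adjusted over all genes tested in the depot, is below 0.05. Of the 20175 genes tested 5.98% were called, 2.85% as lower. The fold change was negative for 27 of the 32 members, with a median log2 change of -0.68, against 0.05 over all genes, and 17 members were lower at an unadjusted p below 0.05, a threshold that 22.3% of all genes passed in either direction. The GC libraries all lay below the Ctrl libraries for 5 members, Nos3, S1pr1, Esam, Rasip1 and Cdh5, and for 4.39% of all genes. Mitochondrial genes held 4.53 to 9.87% of counts in the GC libraries, against 2.00 to 4.48% in the Ctrl libraries, and library totals were 12310822 to 38273929 against 31977093 to 47452558 counts; the part of either in the result was not tested. In bulk tissue, fewer endothelial cells and less RNA of these genes per cell cannot be told apart.

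Nos3 (chr5:24364810-24384474, plus strand, GRCm38 as are all gene positions) had 37.5, 19.8, 20.3, 17.8 and 17.4 CPM in the GC libraries of goWAT at 22 °C, against 40.7, 69.3, 66.9 and 107 CPM in the Ctrl libraries. Each GC library lay below each Ctrl library, and GC replicate 1 came close to the lowest control. The log2 fold change of Nos3 was -1.66 ± 0.26 (SE, n = 5 and 4), with an adjusted p of 0.000732 by edgeR's quasi-likelihood test. The protocol in the labels records no strand, and Nos3 overlaps Atg9b on the other strand, which averaged 2.56 CPM in GC and 3.91 CPM in Ctrl libraries (adjusted p = 0.721, edgeR).

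S1pr1 (chr3:115710433-115715072, minus strand) had 111, 63.1, 66.5, 49.0 and 86.3 CPM in GC libraries, against 137, 190, 163 and 170 CPM in Ctrl libraries of goWAT at 22 °C. The groups did not overlap. Its log2 fold change was -1.13 ± 0.26 (SE), adjusted p = 0.0100 by edgeR. Kdr (chr5:75932827-75978458, minus strand), the main receptor for vascular endothelial growth factor, had 114, 72.7, 42.0, 48.0 and 87.5 CPM in GC libraries, against 86.8, 121, 140 and 179 CPM in Ctrl libraries. Here the groups overlapped, and the log2 fold change of -0.85 ± 0.25 (SE) had an adjusted p of 0.0485 (edgeR), just under the threshold.

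Esam (chr9:37528078-37538319, plus strand) had 134, 78.7, 74.3, 36.7 and 104 CPM in GC libraries, against 154, 154, 174 and 166 CPM in Ctrl libraries of goWAT at 22 °C. Its Ctrl libraries were close together and all above the GC libraries, with a log2 fold change of -0.92 ± 0.26 (SE) and an adjusted p of 0.0332 (edgeR). Rasip1 (chr7:45627488-45639093, plus strand), a Ras-interacting protein needed for vessel lumens, had 15.4, 15.4, 9.64, 7.58 and 20.5 CPM in GC libraries, against 30.5, 24.7, 34.9 and 43.1 CPM in Ctrl libraries. It too was lower in all 5 GC libraries, by -1.28 ± 0.32 on the log2 scale (SE, adjusted p = 0.0176, edgeR). Cyyr1 (chr16:85421533-85553397, minus strand), a small membrane protein, had 5.16, 4.58, 1.87, 2.51 and 8.26 CPM in GC libraries, against 10.0, 12.6, 10.4 and 8.19 CPM in Ctrl libraries. GC replicate 5 overlapped with the lowest control of Cyyr1, and its log2 fold change was -1.19 ± 0.34 (SE, adjusted p = 0.0383, edgeR). Exons of Cyyr1 overlap Gm2541 on the same strand, which averaged 1.79 CPM in GC and 3.39 CPM in Ctrl libraries (adjusted p = 0.201, edgeR), so the Cyyr1 counts are uncertain. Rasip1 overlaps A030001D20Rik on the other strand, at 1.398 CPM in GC and 1.37 CPM in Ctrl libraries.

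The SOXF factor Sox17 fell short of the threshold in goWAT at 22 °C despite a larger fold change. It had 76.9, 21.9, 12.0, 4.86 and 19.1 CPM in GC libraries, against 72.0, 61.2, 78.5 and 171 CPM in Ctrl libraries. GC replicate 1 lay within the control range and the other GC libraries far below it, and the log2 fold change was -1.83 ± 0.59 (SE, adjusted p = 0.0733, edgeR). The classical markers were lower by smaller amounts that did not pass. Pecam1 averaged 77.6 ± 21.8 CPM in GC and 119.9 ± 30.0 CPM in Ctrl libraries (SD, n = 5 and 4), with an adjusted p of 0.0937. Flt1 averaged 51.9 ± 25.1 and 83.6 ± 15.4 CPM, Tek 18.7 ± 10.6 and 30.2 ± 6.07 CPM, and Cdh5 63.4 ± 26.9 and 94.1 ± 1.96 CPM in GC and Ctrl libraries. Vwf, at 13.9 ± 6.47 CPM in GC and 17.6 ± 8.61 CPM in Ctrl libraries, and Plvap, the diaphragm protein of fenestrated endothelium, at 67.6 ± 70.9 CPM in GC and 185.5 ± 112 CPM in Ctrl libraries, varied widely in both groups. Emcn, a sialomucin of capillaries and veins, averaged 19.8 ± 8.86 CPM in GC and 23.9 ± 2.33 CPM in Ctrl libraries, and Aplnr 11.7 ± 7.58 and 31.3 ± 16.6 CPM (adjusted p = 0.0517). Members with no negative change were few: Erg, Sox18, Ptprb, Cd93 and Mmrn2 had log2 fold changes of 0.59, 0.17, 0.14, 0.08 and 0.06, none called.

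**Figure D2:**
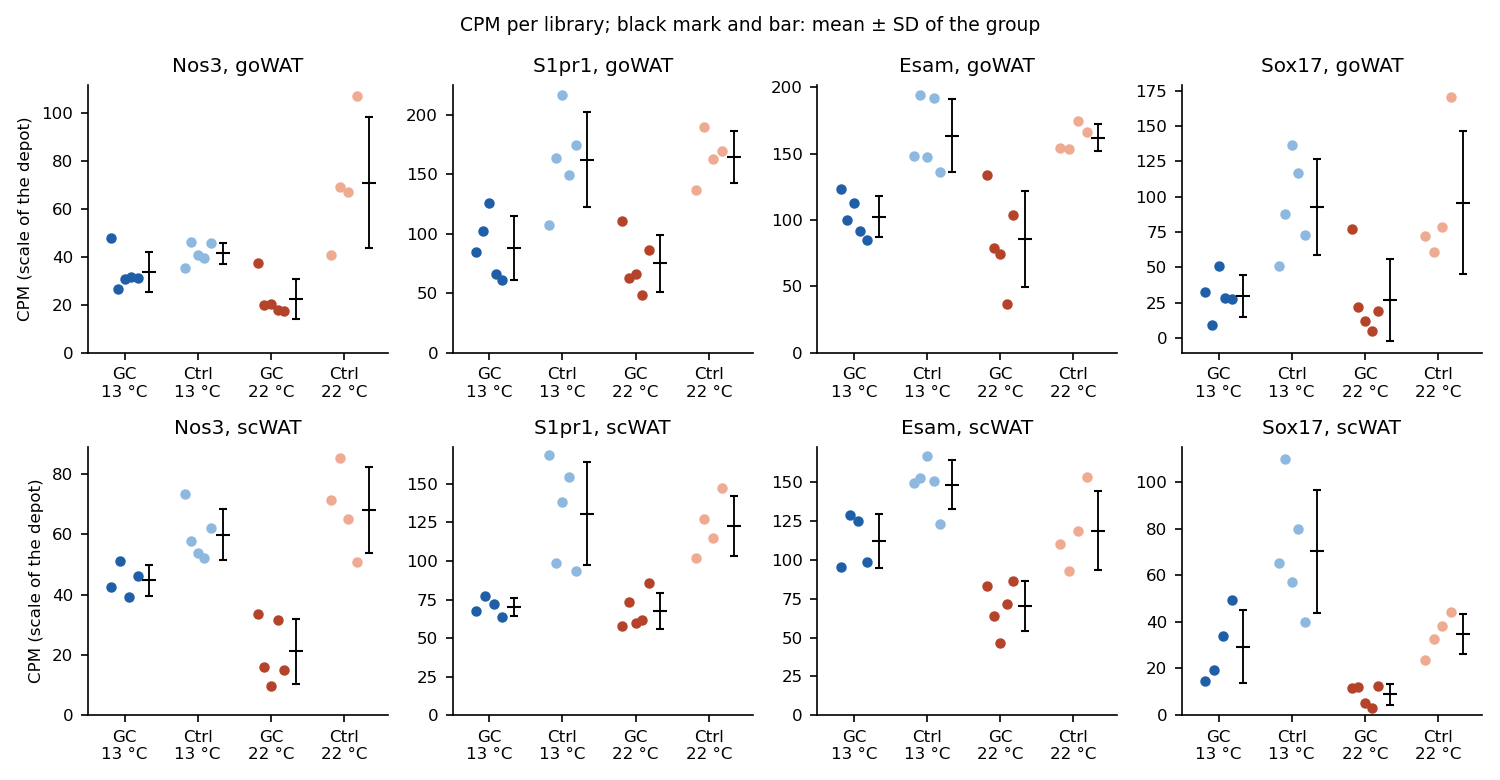
CPM (vertical axis) of Nos3, S1pr1, Esam and Sox17 in each library of goWAT and scWAT, with GC left of Ctrl, 13 °C before 22 °C; points are libraries and black marks with bars are means ± SD. Nos3 at 22 °C lies at 37.5 CPM or below in the GC libraries of both depots and at 40.7 CPM or above in the Ctrl libraries.

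The calls in goWAT at 22 °C differed in how much they rested on single libraries. Nos3 stayed called under all 27 alternatives tried, and S1pr1 under 26. Without the low-quality GC replicates 2 and 4, only Nos3 was called, and the adjusted p of the other 5 ran between 0.0742 for S1pr1 and 0.176 for Kdr. Without GC replicate 1 of the 22 °C group, 13 members were called in place of 6, a count given without the share of all genes called then. Rasip1 lost its call without Ctrl replicate 4 of 22 °C (adjusted p = 0.0769). Esam lost it without any of the 4 Ctrl libraries or GC replicates 2 or 3 of 22 °C (0.0601 to 0.0892), and Cyyr1 without any of the 4 Ctrl libraries or GC replicates 2, 3 or 4 (0.0618 to 0.104). Kdr lost it without any one of 16 libraries, which were Ctrl replicates 2 to 4 and GC replicates 2 to 4 of 22 °C and each library of 13 °C (0.0502 to 0.193). Summed CPM of 14 macrophage markers ran between 1098 and 2411 in GC and between 848 and 1168 in Ctrl libraries, with none of the 14 called. Summed CPM of 13 markers of mural cells, the pericytes and smooth muscle around vessels, ran between 545 and 969 in GC and between 555 and 767 in Ctrl libraries, with 1 called, Kcnj8, lower. Of 10 adipocyte markers 1 was called higher and 3 lower, with sums of 20905 to 51211 CPM in GC and 20791 to 24031 CPM in Ctrl libraries of goWAT. Brown adipocyte markers summed to 1394 CPM in GC replicate 1 and to 29.2 to 149 CPM in the other libraries of 22 °C. No marker of these lists was at 0 in every library, and the part of these cells in the result was not tested.

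In goWAT at 13 °C, Cdh5 and Podxl fell under GC and no member rose. Of all genes 1.45% were called, 0.6% as lower. Again 27 of 32 members had negative changes, with a median of -0.61 on the log2 scale, against 0.01 over all genes. Cdh5 (chr8:104101625-104144511, plus strand), or VE-cadherin, the cadherin of endothelial junctions, had 56.9, 39.3, 41.4, 43.8 and 35.8 CPM in GC libraries, against 101, 93.6, 98.3, 84.9 and 76.8 CPM in Ctrl libraries. The lowest control was well above the highest GC library. Podxl (chr6:31519488-31563981, minus strand), a sialomucin of the vessel lumen, had 16.1, 8.33, 9.55, 18.3 and 9.87 CPM in GC libraries, against 31.1, 20.1, 25.2, 20.6 and 33.5 CPM in Ctrl libraries. It too did not overlap, and the log2 fold change of Podxl was -1.07 ± 0.26 (SE, n = 5 each), adjusted p = 0.0368 by edgeR. That of Cdh5 was -1.07 ± 0.26 as well, with an adjusted p of 0.0415 (edgeR).

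Both calls lay near the threshold. Cdh5 lost its call without any one of 13 libraries, Ctrl replicates 1 to 4 of 22 °C, all 5 Ctrl libraries and GC replicates 2 to 5 of 13 °C (adjusted p 0.0535 to 0.116), and Podxl without Ctrl replicates 1, 3, 4 or 5 or GC replicates 2, 3 or 5 of 13 °C (0.0507 to 0.110). Without GC replicate 5 of 22 °C and Ctrl replicates 1 and 4 of 13 °C, which held epididymal transcripts in earlier results, the adjusted p was 0.156 for Cdh5 and 0.124 for Podxl, with log2 fold changes of -1.05 and -1.08. Brown adipocyte markers summed to 2045 CPM in GC replicate 1 of 13 °C, and leaving out that library kept both calls. Macrophage markers summed to 773 to 2667 CPM in GC and to 718 to 1489 CPM in Ctrl libraries at 13 °C, and mural markers to 617 to 1266 and 770 to 959 CPM, with none of either list called. Their part was not tested.

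Other members of goWAT at 13 °C were lower without passing. S1pr1 had 84.4, 103, 126, 66.2 and 61.3 CPM in GC libraries, against 107, 164, 217, 149 and 175 CPM in Ctrl libraries, an overlap of 1 library (adjusted p = 0.0696, edgeR). Esam had 123, 100, 113, 91.8 and 84.9 CPM in GC libraries, against 148, 194, 147, 192 and 136 CPM in Ctrl libraries, and did not overlap. Esam and Flt1 were, with Cdh5 and Podxl, the 4 members whose GC libraries all lay below the Ctrl libraries, a pattern that 2.51% of all genes showed. Nos3, at 48.0, 26.5, 30.9, 31.4 and 31.3 CPM in GC libraries, against 35.2, 46.1, 40.8, 39.6 and 45.6 CPM in Ctrl libraries, was lower in 4 of 5 GC libraries and above every control in replicate 1. Pecam1 averaged 104.5 ± 22.1 CPM in GC and 130.1 ± 10.9 CPM in Ctrl libraries (SD, n = 5 each), Kdr 91.3 ± 10.8 and 103.0 ± 12.1 CPM, Flt1 45.6 ± 7.92 and 71.3 ± 12.6 CPM, and Tek 24.99 ± 3.199 and 33.8 ± 8.44 CPM. Vwf averaged 11.1 ± 5.76 CPM in GC and 18.0 ± 3.19 CPM in Ctrl libraries, Emcn 18.6 ± 4.95 and 30.6 ± 3.74 CPM, Sox17 29.8 ± 14.95 and 93.0 ± 34.0 CPM, and Aplnr 10.3 ± 2.84 and 24.4 ± 11.0 CPM. Plvap was not lower, with 74.6 ± 33.9 CPM in GC and 58.8 ± 23.9 CPM in Ctrl libraries.

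In scWAT at 22 °C, 6 members fell under GC and none rose: Nos3, Sox17, S1pr1, Aplnr, Esam and Emcn. Of the 19003 genes tested 6.93% were called, 3.45% as lower. The changes were negative for 21 of 32 members, with a median of -0.26 on the log2 scale, against 0.06 over all genes. Nos3, S1pr1 and Esam were called in goWAT at 22 °C too.

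Nos3 had 33.7, 15.9, 9.61, 31.6 and 15.1 CPM in the GC libraries of scWAT at 22 °C, against 71.3, 85.3, 65.1 and 50.7 CPM in the Ctrl libraries, with no overlap. Its log2 fold change was -1.69 ± 0.29 (SE, n = 5 and 4) with an adjusted p of 0.000969 (edgeR), and the overlapping Atg9b averaged 1.02 CPM in GC and 4.20 CPM in Ctrl libraries. Sox17 (chr1:4490931-4497354, minus strand), a SOXF factor of arterial endothelium, had 11.6, 11.9, 5.15, 2.96 and 12.5 CPM in GC libraries, against 23.7, 32.6, 38.3 and 44.1 CPM in Ctrl libraries. Every GC library of Sox17 was well below the lowest control, and its log2 fold change of -1.97 ± 0.40 (SE, adjusted p = 0.00422, edgeR) was the most negative among the called members of the list within a depot.

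Among the receptors, S1pr1 had 57.7, 73.6, 59.95, 62.0 and 85.4 CPM in GC libraries, against 102, 127, 115 and 147 CPM in Ctrl libraries of scWAT at 22 °C. The groups did not overlap (log2 fold change -0.86 ± 0.21, SE, adjusted p = 0.0140, edgeR). Aplnr (chr2:85136225-85139923, plus strand) had 6.22, 8.196, 5.27, 4.36 and 6.13 CPM in GC libraries, against 7.42, 12.4, 27.5 and 17.1 CPM in Ctrl libraries. GC replicate 2 lay above the lowest control, and the Ctrl libraries of Aplnr were spread widely (log2 fold change -1.41 ± 0.37, SE, adjusted p = 0.0225, edgeR).

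Among the surface proteins, Esam had 83.4, 63.8, 46.6, 71.9 and 86.7 CPM in GC libraries, against 110, 92.9, 119 and 153 CPM in Ctrl libraries, with no overlap, a log2 fold change of -0.75 ± 0.21 (SE) and an adjusted p of 0.0302 (edgeR). Emcn (chr3:137341067-137432185, plus strand), whose promoter is printed above, had 11.9, 20.7, 12.8, 14.0 and 19.98 CPM in GC libraries, against 29.9, 28.3, 23.8 and 28.4 CPM in Ctrl libraries. The groups of Emcn did not overlap, and its log2 fold change was -0.80 ± 0.23 (SE, adjusted p = 0.0360, edgeR). In all, 5 members had each GC library below each Ctrl library, a pattern that 4.43% of all genes showed.

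Other core members of scWAT at 22 °C did not pass. Pecam1 averaged 79.6 ± 20.2 CPM in GC and 78.9 ± 13.7 CPM in Ctrl libraries (SD, n = 5 and 4). Flt1 averaged 90.2 ± 56.2 and 87.1 ± 22.0 CPM, Tek 23.4 ± 8.36 and 21.2 ± 5.86 CPM, and Kdr 84.5 ± 32.8 and 97.7 ± 15.3 CPM in GC and Ctrl libraries. Cdh5 averaged 81.1 ± 44.5 CPM in GC and 118.2 ± 36.9 CPM in Ctrl libraries, Vwf 9.54 ± 2.36 and 12.9 ± 7.91 CPM, and Plvap 26.4 ± 8.60 and 54.4 ± 13.7 CPM (adjusted p = 0.0891 for Plvap). Egfl7, a secreted vascular protein, overlaps Agpat2 on the other strand, which fell under GC (adjusted p = 0.0237), so the Egfl7 counts of scWAT are uncertain.

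Nos3 and Sox17 stayed called in scWAT at 22 °C under all 25 alternatives. Without the macrophage-rich GC replicates 2 and 3, they were the only 2 members called, and the adjusted p was 0.0696 for S1pr1, 0.0576 for Aplnr, 0.208 for Esam and 0.0811 for Emcn, with log2 fold changes of -0.84, -1.53, -0.56 and -0.85. S1pr1 lost its call without Ctrl replicate 4 (0.0662) or GC replicate 3 (0.0546) of 22 °C, and Aplnr without Ctrl replicates 3 or 4 or GC replicate 3 (0.0614 to 0.119). Esam lost it without Ctrl replicates 1, 3 or 4 or GC replicates 2 or 3 (0.0518 to 0.142), and Emcn without Ctrl replicates 1, 2 or 4, GC replicates 1, 3 or 4 of 22 °C or GC replicate 5 of 13 °C (0.0518 to 0.127). Macrophage markers summed to 838 to 11452.5 CPM in GC and to 623 to 1510 CPM in Ctrl libraries of 22 °C. In GC replicates 2 and 3 they summed to 11452.5 and 7938 CPM in scWAT, and 3 of the 14 were called, all higher. Mural markers summed to 491 to 989 CPM in GC and to 596 to 666 CPM in Ctrl libraries, with 1 of 13 called higher and 2 lower. Of 8 brown adipocyte markers 7 were called lower, with sums of 70.2 to 192 CPM in GC and 659 to 3189.9 CPM in Ctrl libraries of scWAT at 22 °C. Skeletal muscle markers summed to 17.0 to 2238 CPM in GC and 14.0 to 501 CPM in Ctrl libraries of scWAT at 22 °C. Beyond the leave-out values given, the part of these lists was not tested.

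In scWAT at 13 °C, S1pr1 alone fell under GC and no member rose, against 2.59% of all genes called, 1.14% as lower. S1pr1 had 67.7, 77.6, 72.2 and 63.9 CPM in GC libraries, against 169, 98.6, 138, 155 and 93.5 CPM in Ctrl libraries. The GC libraries were close together and below every control, with a log2 fold change of -0.89 ± 0.21 (SE, n = 4 and 5) and an adjusted p of 0.0232 (edgeR). Nos3 did not overlap either, with 42.7, 51.0, 39.1 and 46.3 CPM in GC libraries, against 73.5, 57.8, 53.9, 52.1 and 62.2 CPM in Ctrl libraries, but its difference was small and was not called. Sox17 had 14.5, 19.5, 33.8 and 49.5 CPM in GC libraries, against 65.2, 110, 57.1, 80.0 and 39.8 CPM in Ctrl libraries (adjusted p = 0.102, edgeR), with 1 GC library above the lowest control.

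Of the 32 changes in scWAT at 13 °C 23 were negative, with a median of -0.17 on the log2 scale, against 0.01 over all genes. Pecam1 averaged 89.2 ± 17.8 CPM in GC and 93.3 ± 18.5 CPM in Ctrl libraries (SD, n = 4 and 5), Cdh5 85.1 ± 31.8 and 85.6 ± 22.4 CPM, Kdr 116.3 ± 34.6 and 119.5 ± 34.2 CPM, and Flt1 64.6 ± 9.17 and 75.0 ± 10.5 CPM. These 4 defining markers were thus within their spread. Tek, Vwf, Plvap, Emcn and Aplnr averaged 28.5, 7.63, 63.3, 15.03 and 7.17 CPM in GC libraries, against 23.7, 9.92, 47.5, 18.7 and 12.5 CPM in Ctrl libraries. The S1pr1 call ended without Ctrl replicates 1, 3 or 4 or GC replicates 1, 4 or 5 of 13 °C (adjusted p 0.0536 to 0.0843). Without the keratin-rich Ctrl replicate 3 and GC replicates 3, 4 and 5, which leaves 1 GC library assumed to vary like the other groups, its adjusted p was 1.0. In scWAT, 6 mesothelial markers, Krt18 and Krt19 among them, summed to 1.27 to 212 CPM in GC and 2.18 to 66.1 CPM in Ctrl libraries of 13 °C. Of 8 brown adipocyte markers 4 were called lower, with sums of 142 to 638 CPM in GC and 1083 to 3690.04 CPM in Ctrl libraries of scWAT at 13 °C. Macrophage markers summed to 571 to 716 CPM in GC and 373 to 726 CPM in Ctrl libraries, none called, and mural markers to 551 to 881 and 569 to 773 CPM, with 1 called higher and 1 lower. The part of these lists was not tested.

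In iBAT at 13 °C Cldn5 rose under GC and no member fell, against 0.728% of the 17163 genes called, 0.32% as higher. Cldn5 (chr16:18776847-18778262, plus strand), the claudin that seals endothelial tight junctions, had 102, 109, 95.6, 192 and 320 CPM in GC libraries, against 64.7, 37.0, 56.0, 35.2 and 55.7 CPM in Ctrl libraries. All 5 GC libraries lay above all controls, and 2 of them far above, with a log2 fold change of 1.72 ± 0.34 (SE, n = 5 each) and an adjusted p of 0.0158 (edgeR). Of the 17163 genes 208 lay higher without overlap, against 1 of the 32 members. S1pr1 had 45.5, 33.3, 43.0, 45.1 and 62.6 CPM in GC libraries, against 118, 94.7, 106, 57.0 and 96.1 CPM in Ctrl libraries of iBAT at 13 °C, with 1 GC library above the lowest control, and just missed the threshold with a log2 fold change of -1.04 (adjusted p = 0.0501, edgeR). The median change of the members was -0.15, against 0.02 over all genes, and 20 of 32 were negative.

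The Cldn5 call ended without Ctrl replicate 2 (adjusted p = 0.0577), Ctrl replicate 4 (0.0598) or GC replicate 5 (0.0540) of 13 °C, and without the muscle-rich Ctrl replicates 3 of 22 °C and 4 of 13 °C and GC replicate 4 of 13 °C (0.0788). In iBAT at 13 °C, 8 skeletal muscle markers summed to 2.96 to 830 CPM in GC and to 6.66 to 312 CPM in Ctrl libraries, and macrophage markers to 134 to 344 and 113 to 230 CPM. Mural markers summed to 321 to 478 CPM in GC and 409 to 614 CPM in Ctrl libraries. No marker of the 3 lists was called, and their part was not tested.

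In iBAT at 22 °C no member was called by edgeR, against 0.664% of all genes, while 5 members had an unadjusted p below 0.05, as had 11.1% of all genes. DESeq2 called 2 and limma-voom 4, counts given without the share of all genes those methods called. Cldn5 had 290, 361, 305, 215 and 199 CPM in GC libraries, against 142, 109 and 50.3 CPM in Ctrl libraries. The groups did not overlap here either, but the controls were spread widely and the adjusted p was 0.110 (log2 fold change 1.45 ± 0.41, SE, n = 5 and 3, edgeR). Erg, the ETS factor, had 0.466, 0.797, 1.01, 2.13 and 1.14 CPM in GC libraries, against 3.16, 3.85 and 2.82 CPM in Ctrl libraries, also without overlap, at low levels (adjusted p = 0.160, edgeR). Of the 17163 genes tested, 737 lay higher and 563 lower without overlap, against 1 and 1 of the 32 members. The members' share is near that of all genes, so these separations are no result about the members. Of the 32 changes 23 were negative, with a median of -0.11, against 0.01 over all genes. Macrophage markers summed to 113 to 4732 CPM in GC and 146 to 537 CPM in Ctrl libraries of iBAT at 22 °C. Skeletal muscle markers summed to 1.14 to 142 and 30.9 to 298 CPM. No marker of either list was called, and their part was not tested.

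Other core markers of iBAT did not pass between treatments. Pecam1 averaged 48.2 ± 10.6 CPM in GC and 50.7 ± 9.74 CPM in Ctrl libraries at 13 °C, and 51.3 ± 4.84 and 48.3 ± 10.8 CPM at 22 °C (SD). Flt1 averaged 79.9 ± 30.2 and 70.4 ± 11.1 CPM at 13 °C and 65.1 ± 23.3 and 56.4 ± 23.7 CPM at 22 °C. Kdr averaged 61.2 and 51.0 CPM at 13 °C and 82.1 and 66.0 CPM at 22 °C in GC and Ctrl libraries, and Cdh5 52.0 and 58.3 CPM, and 41.8 and 45.9 CPM. Tek averaged 13.0 and 16.1 CPM at 13 °C and 18.9 and 14.0 CPM at 22 °C, Vwf 3.11 and 3.02 CPM, and 3.97 and 5.68 CPM, and Plvap 5.16 and 3.91 CPM, and 9.73 and 9.72 CPM. None of these passed. Emcn averaged 13.7 and 19.2 CPM at 13 °C and 12.2 and 22.2 CPM at 22 °C, and Nos3 18.2 and 16.7 CPM, and 17.1 and 37.6 CPM. Sox17 averaged 9.49 and 19.7 CPM at 13 °C and 18.4 and 20.1 CPM at 22 °C, and Aplnr 1.18 and 4.30 CPM, and 1.30 and 4.50 CPM, in GC and Ctrl libraries.

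**Figure D3:**
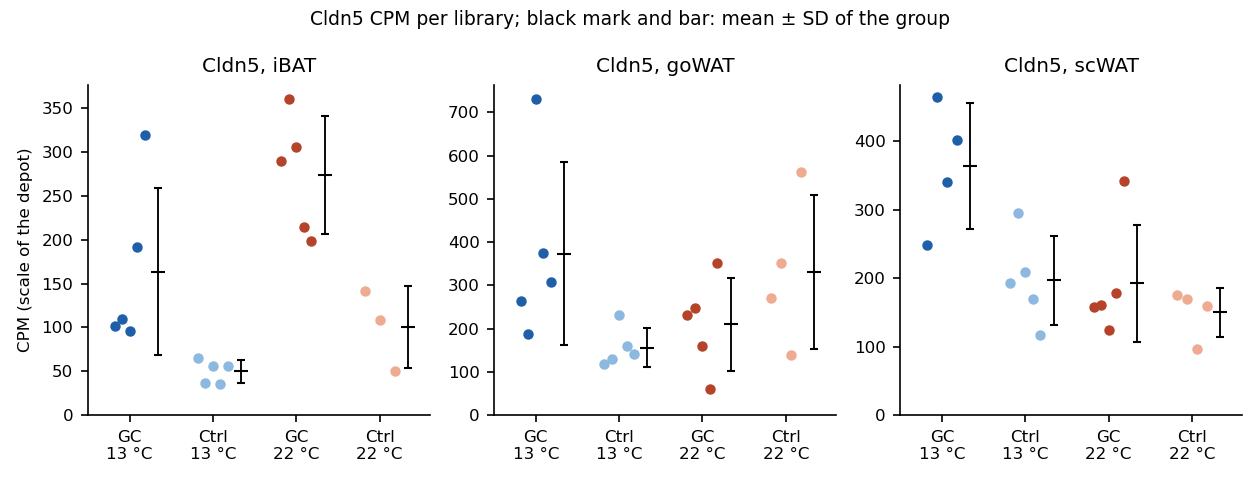
CPM of Cldn5 (vertical axis) in each library of the 3 depots, GC left of Ctrl at each temperature; points are libraries and black marks with bars are means ± SD. In iBAT the lowest GC library at 13 °C, 95.6 CPM, lies above the highest Ctrl library, 64.7 CPM.

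Set side by side, the 6 corticosterone comparisons were negative in all 6 for 10 of the 32 members: S1pr1, Esam, Aplnr, Cdh5, Emcn, Rasip1, Sox17, Adgrl4, Clec14a and Tie1. Of the 16667 genes tested in all 3 depots 5.14% were negative in all 6. Comparisons of a depot share a fit but no library. S1pr1 was called in 3 of the 6, Esam and Nos3 in 2 each. Cldn5 was positive in 5 of 6, with log2 changes of 1.26 in goWAT at 13 °C, -0.66 in goWAT at 22 °C, 0.88 in scWAT at 13 °C and 0.36 in scWAT at 22 °C besides the 2 in brown fat. In goWAT at 13 °C it had 265, 188, 731, 375 and 307 CPM in GC libraries, against 117, 129, 232, 159 and 142 CPM in Ctrl libraries (adjusted p = 0.124, edgeR), overlapping by 1 library. Of the SOXF factors, Sox18 had log2 changes of 1.23 and 0.17 in goWAT at 13 and 22 °C where Sox17 had -1.64 and -1.83. None of these changes was called, and no test compared the SOXF factors with each other.

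**Figure D4:**
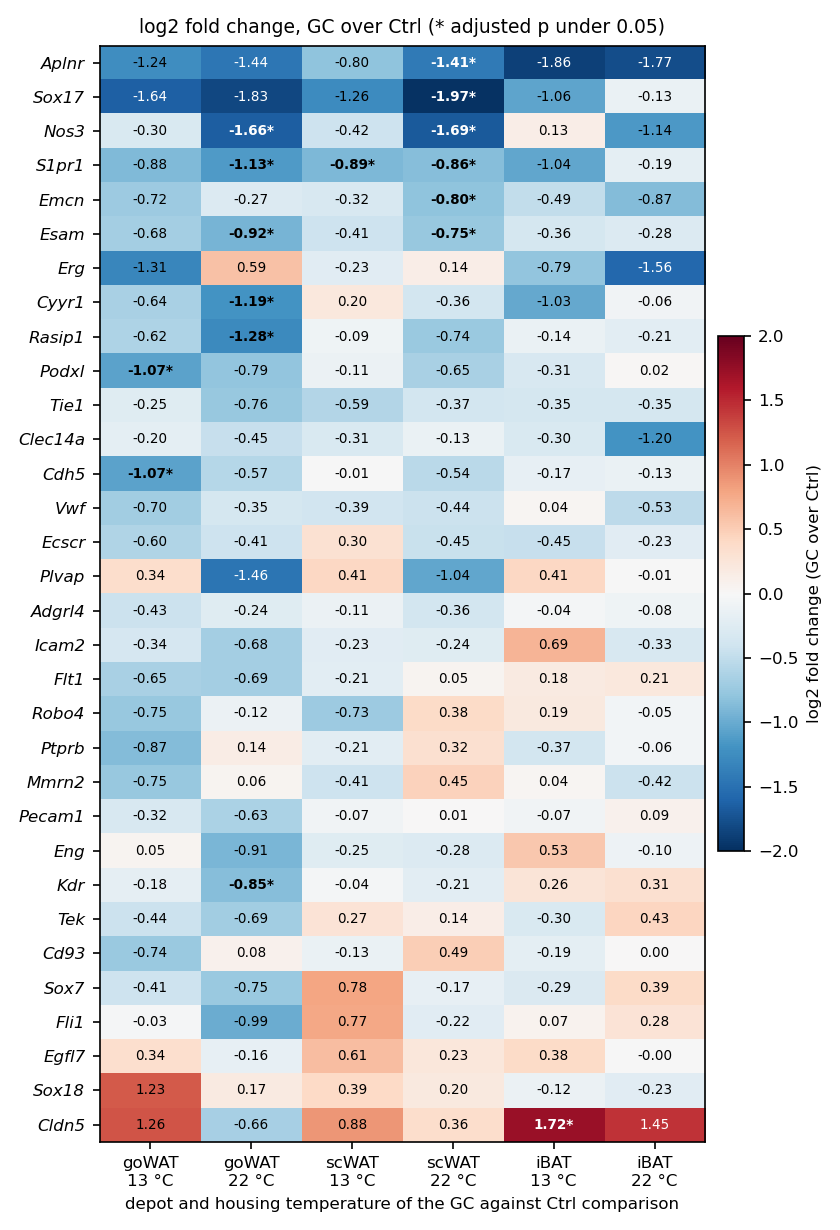
Heat map of the log2 fold change, GC over Ctrl, of the 32 endothelial genes (rows) in goWAT, scWAT and iBAT at 13 and 22 °C (columns); an asterisk marks an adjusted p below 0.05. S1pr1 carries 3 asterisks, and Cldn5 in iBAT at 13 °C is the single positive change called.

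Whether the GC change differed between depots was tested in one fit over the 55 libraries, and no member was called by edgeR at either temperature, against 0.742% of 22245 genes at 22 °C and 0.234% at 13 °C. At an unadjusted p below 0.05 there were 7 members at 22 °C and 5 at 13 °C, against 17.1% and 12.3% of all genes. By limma-voom 1 was called at 13 °C, a count given without that method's share of all genes. Cldn5 had the smallest adjusted p at 22 °C, 0.0997, followed by Erg with 0.165, and Icam2 and Robo4 were first at 13 °C with 0.237 and 0.286. The depot patterns above are therefore not shown to differ for single genes.

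Whether the GC change differed between temperatures was tested as an interaction in each depot. No member was called by edgeR, against 0.461% of genes in goWAT and 0% in scWAT and iBAT, and 9, 5 and 3 members had an unadjusted p below 0.05 in goWAT, scWAT and iBAT, against 13.4%, 9.67% and 6.4% of all genes. In goWAT Nos3 had an interaction of 1.35 ± 0.36 (log2 change at 13 °C minus that at 22 °C, SE, adjusted p = 0.107) and Cldn5 one of 1.92 ± 0.59 (adjusted p = 0.171, edgeR). DESeq2 called 1 member in goWAT, and edgeR 1 without GC replicate 1 of 22 °C, given without the share of all genes called then. In scWAT the first 2 were Nos3 with 1.27 ± 0.40 (adjusted p = 0.295) and Robo4 with -1.11, and in iBAT Nos3 with 1.27 and Icam2 with 1.02 (adjusted p = 0.765 for both). The Nos3 interaction was positive in the 3 depots, and passed in none.

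Cold in placebo mice changed no member by edgeR in any depot, against 0.312% of all genes in goWAT, 0% in scWAT and 0.0175% in iBAT, with 3, 6 and 4 members at an unadjusted p below 0.05, against 6.79%, 12.4% and 8.74% of all genes. DESeq2 called 1 member in scWAT and 1 in iBAT and limma-voom called 2 and 4, given without the share of all genes those methods called. In goWAT the first 2 by p were Nos3, with 35.2, 46.1, 40.8, 39.6 and 45.6 CPM at 13 °C, against 40.7, 69.3, 66.9 and 107 CPM at 22 °C, and Plvap, with 29.7, 83.8, 83.0, 45.7 and 51.8 CPM at 13 °C, against 138, 79.1, 340 and 184 CPM at 22 °C. Both overlapped, with adjusted p of 0.387 and 0.510 (edgeR). In scWAT they were Robo4, a guidance receptor that stabilises vessels, and Eng, a co-receptor for transforming growth factor beta. Robo4 had 52.0, 39.5, 41.4, 40.1 and 24.8 CPM at 13 °C, against 22.9, 18.2, 12.8 and 24.7 CPM at 22 °C, so the lowest cold library stood level with the highest warm one (log2 fold change 1.01 ± 0.28, SE, adjusted p = 0.218, edgeR).

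Eng had 162, 136, 149, 153 and 82.6 CPM at 13 °C, against 74.1, 78.1, 101 and 80.9 CPM at 22 °C in Ctrl scWAT (adjusted p = 0.278, edgeR), with 1 cold library inside the warm range. In iBAT Eng pointed the other way, with 36.3, 25.3, 38.0, 20.6 and 37.0 CPM at 13 °C, against 69.6, 54.3 and 81.4 CPM at 22 °C. All cold libraries of Eng were below all warm ones there (log2 fold change -1.12 ± 0.27, SE, adjusted p = 0.226, edgeR). Of 17163 genes 517 showed that pattern in iBAT, against 1 of the 32 members. The shares are alike, so this separation is no result about the members. Nos3 in Ctrl iBAT had 25.9, 13.1, 12.7, 17.5 and 14.2 CPM at 13 °C, against 43.1, 56.2 and 13.7 CPM at 22 °C, with 1 warm library at the cold level (adjusted p = 0.362, edgeR).

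In GC-treated mice cold went with 5 called members in scWAT: Sox17, Nos3, Plvap and Esam rose at 13 °C over 22 °C, and Cd93 fell. Of all genes 8.18% were called, 3.02% as higher and 5.17% as lower. These comparisons use the GC libraries of scWAT used above, so they are not a second observation of the levels at 22 °C. Sox17 had 14.5, 19.5, 33.8 and 49.5 CPM at 13 °C, against 11.6, 11.9, 5.15, 2.96 and 12.5 CPM at 22 °C, without overlap (log2 fold change 1.73 ± 0.40, SE, adjusted p = 0.0165, edgeR). Nos3 had 42.7, 51.0, 39.1 and 46.3 CPM, against 33.7, 15.9, 9.61, 31.6 and 15.1 CPM, and did not overlap either (1.08 ± 0.28, adjusted p = 0.0268, edgeR). Plvap (chr8:71497765-71511752, minus strand) had 43.5, 28.5, 88.7 and 92.5 CPM at 13 °C, against 34.0, 37.1, 22.4, 18.2 and 20.1 CPM at 22 °C, with 1 cold library inside the warm range (1.26 ± 0.37, adjusted p = 0.0390, edgeR).

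Esam had 95.6, 129, 125 and 99.0 CPM at 13 °C, against 83.4, 63.8, 46.6, 71.9 and 86.7 CPM at 22 °C in GC scWAT, without overlap (log2 fold change 0.67 ± 0.21, SE, adjusted p = 0.0489, edgeR). Cd93 (chr2:148436640-148443563, minus strand), a C-type lectin receptor of endothelium that myeloid cells also carry, had 28.2, 37.4, 36.6 and 26.4 CPM at 13 °C, against 24.7, 124, 145, 42.4 and 91.0 CPM at 22 °C. Its 2 highest libraries were GC replicates 2 and 3 of 22 °C, the macrophage-rich ones. Of 14 macrophage markers 12 were called lower at 13 °C, and they summed to 571 to 716 CPM there, against 838 to 11452.5 CPM at 22 °C in GC scWAT. Mural markers summed to 551 to 881 CPM at 13 °C and 491 to 989 CPM at 22 °C. The mesothelial markers, Krt18 and Krt19 among them, summed to 1.27 to 212 CPM and 0.359 to 3.84 CPM. Of 8 brown adipocyte markers 2 were called higher at 13 °C, with sums of 142 to 638 CPM, against 70.2 to 192 CPM at 22 °C. Of 8 markers of adipose progenitors 3 were called lower, with sums of 1151 to 1759 CPM, against 1900.1 to 5206 CPM. Skeletal muscle markers summed to 10.6 to 126 CPM at 13 °C and 17.0 to 2238 CPM at 22 °C. Beyond the leave-out values that follow, the part of these lists was not tested.

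None of the 5 calls between temperatures in GC scWAT held without the macrophage-rich libraries (adjusted p 0.0951 for Sox17, 0.121 for Plvap, 0.159 for Nos3, 0.263 for Esam and 0.304 for Cd93), where the log2 fold changes were 1.71, 1.41, 0.76, 0.50 and -0.70. Without the keratin-rich ones, which leaves 1 GC library at 13 °C, they were 0.74 for Sox17, 0.74 for Plvap, 1.04 for Nos3, 0.47 for Esam and -1.57 for Cd93 (adjusted p 0.705 to 0.737). Single libraries also ended them. Sox17 lost its call without GC replicates 3, 4 or 5 of 13 °C (0.0506 to 0.0550), Nos3 without GC replicates 2 or 3 of 22 °C or 3 or 4 of 13 °C (0.0567 to 0.0844), and Cd93 without GC replicates 2 or 3 of 22 °C or any GC library of 13 °C (0.0663 to 0.0869). Plvap lost it without GC replicates 3, 4 or 5 of 22 °C, Ctrl replicate 3 or GC replicates 3, 4 or 5 of 13 °C (0.0503 to 0.124), and Esam without any of 15 libraries, the 4 Ctrl and GC replicates 2 to 4 of 22 °C, Ctrl replicates 1 to 4 and all GC libraries of 13 °C (0.0511 to 0.145).

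In the other depots cold changed no member under GC by edgeR, against 0.0149% of all genes in goWAT and 0.00583% in iBAT, and 8 and 5 members had an unadjusted p below 0.05, against 14.3% and 15.5% of all genes. In goWAT Erg had 1.16, 1.37, 3.15, 3.10 and 1.48 CPM at 13 °C, against 1.64, 4.20, 2.36, 9.98 and 8.75 CPM at 22 °C (adjusted p = 0.198), and Sox7 had 31.8, 25.7, 98.8, 35.4 and 33.5 CPM, against 26.7, 31.2, 25.5, 8.12 and 16.2 CPM (adjusted p = 0.233). Both overlapped. In iBAT S1pr1 had 45.5, 33.3, 43.0, 45.1 and 62.6 CPM at 13 °C, against 104, 95.8, 61.6, 56.3 and 58.3 CPM at 22 °C (adjusted p = 0.184), and Sox17 had 13.9, 7.001, 2.06, 6.86 and 17.6 CPM, against 15.7, 29.2, 26.9, 10.4 and 9.89 CPM (adjusted p = 0.275, edgeR). One cold library of S1pr1 reached the warm range.

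More members were called between depots than within them. In one fit over 55 libraries, each depot taken as the mean of its 4 groups, 18 members differed between iBAT and goWAT, 17 lower and 1 higher in brown fat. Of all 22245 genes 57.4% were called in that comparison, 23.3% as higher and 34.1% as lower, so the members' 17 of 32 stand against a high background. Between iBAT and scWAT 16 members were called, all lower in brown fat, against 44.6% of genes, 26.5% as lower. The median log2 difference of the members was -0.40 in both, against -0.20 and -0.15 over all genes, and 29 and 26 of 32 were negative. The 3 depot comparisons share their libraries. Mitochondrial genes held 11.4 to 29.5% of counts in iBAT libraries, 1.67 to 9.87% in goWAT and 2.36 to 9.03% in scWAT, and the part of this in the depot calls was not tested.

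On the scale of that fit, Plvap had 0.596 to 21.3 CPM with a median of 6.55 in the 18 libraries of iBAT, 13.5 to 312 CPM with a median of 70.3 in the 19 of goWAT, and 16.8 to 83.7 CPM with a median of 33.3 in the 18 of scWAT. Brown fat was below the other depots with ranges that met at their ends, by -3.25 ± 0.35 against goWAT and -2.33 ± 0.33 against scWAT on the log2 scale (SE, adjusted p = 4.86e-11 for goWAT, edgeR). Aplnr followed, with medians of 2.49 CPM in iBAT, 13.3 in goWAT and 7.16 in scWAT and log2 differences of -2.45 ± 0.33 and -1.61 ± 0.32. Vwf had medians of 3.81, 14.1 and 7.27 CPM in iBAT, goWAT and scWAT and was lower in iBAT by -1.51 ± 0.22 and -0.92 ± 0.22, and Robo4, with 12.4, 27.1 and 22.5 CPM, by -0.9983 ± 0.14 and -0.78 ± 0.14.

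Flt1, the decoy receptor of vascular endothelial growth factor, was the member higher in brown fat. It had 44.6 to 161 CPM with a median of 83.4 in iBAT and 21.7 to 95.0 CPM with a median of 53.5 in goWAT, a log2 difference of 0.58 ± 0.15 (SE, adjusted p = 0.000945, edgeR), with ranges that overlapped. In scWAT its median was 68.4 CPM, and the difference of 0.22 did not pass. Kdr, the signalling receptor, differed in neither comparison, by -0.16 and -0.25.

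Sox7 set gonadal fat apart. It had 6.02 to 17.3 CPM with a median of 9.96 in iBAT, 6.98 to 86.2 CPM with a median of 29.3 in goWAT, and 4.14 to 30.2 CPM with a median of 12.1 in scWAT. Its log2 difference was -1.78 ± 0.20 for iBAT against goWAT and 1.42 ± 0.19 for goWAT against scWAT (SE, adjusted p = 2.77e-07, edgeR), while iBAT against scWAT, -0.36, did not pass. Of its SOXF relatives, Sox18 was lower in iBAT than in goWAT and scWAT by -0.9965 and -1.03, with medians of 22.5, 33.3 and 41.9 CPM in iBAT, goWAT and scWAT. Sox17 had medians of 19.6, 46.1 and 30.1 CPM in iBAT, goWAT and scWAT, and was called for iBAT against goWAT (-1.23) and goWAT against scWAT (0.88 ± 0.25).

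Between goWAT and scWAT 7 members were higher in goWAT and 1 lower, against 18% of all genes called, 8.91% as higher and 9.12% as lower. Besides Sox7, Sox17 and Aplnr they were Plvap (0.92 ± 0.30, adjusted p = 0.0281), Pecam1 (0.31 ± 0.10, adjusted p = 0.0291), Eng (0.41 ± 0.14, adjusted p = 0.0342) and Vwf (0.59 ± 0.21, adjusted p = 0.0384, edgeR). Erg was lower in goWAT, by -0.77 ± 0.23 (adjusted p = 0.0142), with medians of 2.78 CPM in goWAT and 4.52 CPM in scWAT. Pecam1 had a median of 57.3 CPM in iBAT, 97.0 CPM in goWAT and 75.9 CPM in scWAT, an order in which each step was called with all libraries. Other members called lower in brown fat included Eng against goWAT (-0.93 ± 0.14), Rasip1 against scWAT (-0.72 ± 0.17), and Esam, Fli1, Ptprb and Nos3 against both.

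**Figure D5:**
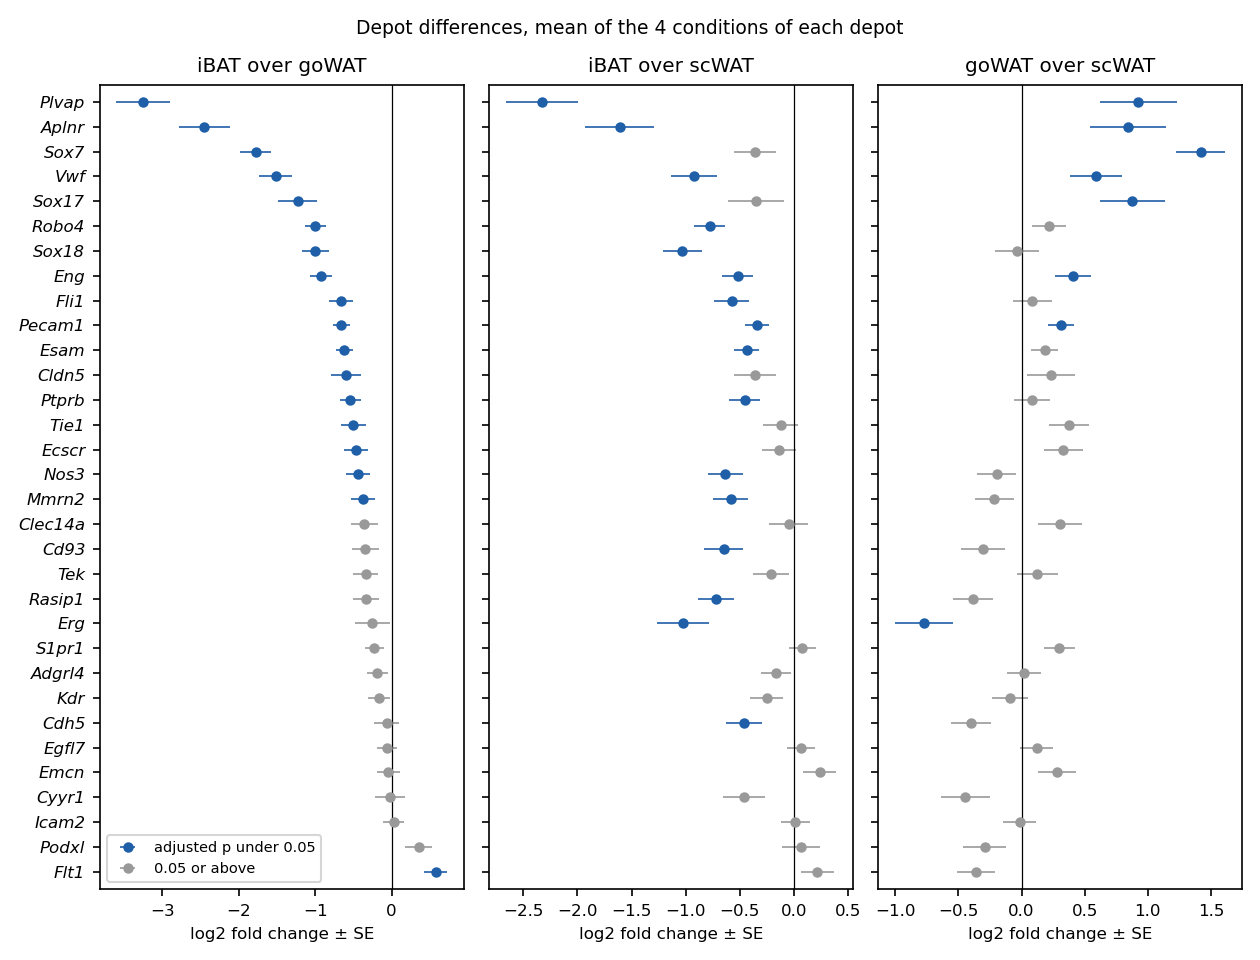
Log2 difference ± SE (horizontal axis) of the 32 endothelial genes (rows) for iBAT against goWAT, iBAT against scWAT and goWAT against scWAT; blue marks an adjusted p below 0.05 and grey one of 0.05 or above. Plvap is farthest left in both comparisons with iBAT, at -3.25 and -2.33.

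The depot calls rested on many libraries, with exceptions. Between goWAT and scWAT, Sox7, Sox17 and Erg kept their calls without any one library, while Plvap lost its own without goWAT Ctrl replicate 3 or GC replicate 1 of 22 °C (adjusted p 0.0644 to 0.0823). Pecam1 lost its own without those or goWAT GC replicate 3 of 13 °C, scWAT Ctrl replicate 2 of 22 °C or scWAT GC replicate 5 of 13 °C (0.0514 to 0.0708), and Eng, Vwf and Aplnr without any of 10, 13 and 18 libraries (0.0504 to 0.0877, 0.0505 to 0.0947 and 0.0506 to 0.0891). Mmrn2 between iBAT and goWAT lost its call without any of 15 libraries (0.0513 to 0.0805), and iBAT Ctrl replicate 3 of 22 °C ended that of Nos3 against goWAT (0.0552) and of Cdh5 against scWAT (0.0511). Without all the libraries in doubt but the keratin-rich, 12, 14 and 6 members were called for iBAT against goWAT, iBAT against scWAT and goWAT against scWAT. These counts are given without the share of all genes called then. Of the 8 called between goWAT and scWAT with all libraries, Sox7 and Erg kept their call there. Pecam1 (log2 difference 0.19, adjusted p = 0.346), Vwf (0.212), Aplnr (0.206), Sox17 (0.150), Plvap (0.117) and Eng (0.105) lost it. Tie1, Cldn5, Ptprb, Mmrn2, Ecscr and Nos3 lost theirs for iBAT against goWAT (adjusted p 0.124 to 0.568), and Cdh5 and Ptprb for iBAT against scWAT (0.153 and 0.0593). Brown adipocyte markers summed to 6533 to 43210 CPM in iBAT and to at most 3296 CPM elsewhere on this scale. Group medians of summed macrophage markers were 203 to 320 CPM in iBAT, 830 to 1455 CPM in goWAT and 478 to 1647 CPM in scWAT. The highest iBAT library held 5689 CPM of them. The part of either list in the depot calls was not tested.

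The signals that act on these vessels were read from a list of 36 growth factors, receptors and regulators. In goWAT at 22 °C 3 rose and 5 fell under GC, against 5.98% of all genes called, 2.85% as lower. Among those that fell were Cxcl12, a chemokine (-1.70 ± 0.30 on the log2 scale, SE), Apln, the ligand of Aplnr (-1.77 ± 0.35), Angpt1, the ligand of Tek (-1.32 ± 0.29), and Jag2, a Notch ligand (-1.26 ± 0.28). Vegfd, a lymphatic growth factor, rose by 1.17 ± 0.24 and Smad7, an inhibitor of transforming growth factor beta signalling, by 1.83 ± 0.43. Esm1, a protein of sprouting tip cells, averaged 1.42 CPM in GC libraries and 0.0119 CPM in Ctrl libraries. The median change of the 36 was 0.0021, against 0.05 over all genes, so the list went both ways.

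In scWAT at 22 °C 3 of the 36 rose and 2 fell under GC: Smad7 (1.69 ± 0.44), Angptl4 (0.85 ± 0.25), a lipase inhibitor, and Dll4 (1.17 ± 0.35), an arterial Notch ligand, against Cxcl12 (-0.95 ± 0.22) and Ephb4, a receptor of veins (-0.90 ± 0.25). At 13 °C Angptl4 rose in goWAT (1.403 ± 0.34), and Angpt1 (1.58 ± 0.30) and Jag1 (0.97 ± 0.25), another Notch ligand, in scWAT, and no member of the list was called lower in either. Of all genes 6.93% were called in scWAT at 22 °C, and 1.45% in goWAT and 2.59% in scWAT at 13 °C. Angpt1 was thus lower under GC in goWAT at 22 °C and higher in scWAT at 13 °C, which no test here compares. In iBAT Heyl, a Notch target, fell at 13 °C (-1.71 ± 0.36), against 0.728% of all genes called. At 22 °C none of the 35 tested was called, against 0.664% of all genes. There 10 of them had an unadjusted p below 0.05, as had 11.1% of all genes. Jag1 was the member of this list whose GC change differed between depots at 13 °C (adjusted p = 0.0363), and Vegfd the one with a called interaction, -1.46 in goWAT.

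In GC-treated scWAT, cold against warm, Notch1 (1.02 ± 0.26) and Ephb4 (0.80 ± 0.25) rose and Nrp2, a co-receptor of lymphatic growth factors (-1.004 ± 0.29), fell. Between depots, Vegfa, the main vascular endothelial growth factor, was higher in iBAT than in goWAT by 1.64 and than in scWAT by 0.63, and lower in goWAT than in scWAT by -1.02, all called. The list as a whole had 9 higher and 13 lower in iBAT than in goWAT, 6 and 12 for iBAT against scWAT, and 4 and 3 for goWAT against scWAT. These shares of 36 lie near those of all genes called, 57.4%, 44.6% and 18%.

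The list of 13 capillary lipid-handling genes had no called member higher under GC in any depot. Of all genes 0.728% and 0.664% were called in either direction in iBAT at 13 and 22 °C. In goWAT the shares were 1.45% and 5.98%, and in scWAT 2.59% and 6.93%. At such shares, none of 13 called higher is no result about the list. Rbp7, a retinol-binding protein of fat capillaries, fell in iBAT at 13 °C (-1.12 ± 0.26) and 22 °C (-1.45 ± 0.29) and in scWAT at 22 °C (-1.32 ± 0.32). Gpihbp1, which carries lipoprotein lipase to the lumen (-1.27 ± 0.31), and Aqp1, a water channel (-1.08 ± 0.24), fell in goWAT at 13 °C. Aqp7, a glycerol channel (-1.22 ± 0.28), and Slc27a3 (-1.36 ± 0.40) fell in goWAT at 22 °C, and Fabp5, a fatty acid carrier (-1.80 ± 0.38), in scWAT at 13 °C. Aqp7 is abundant in adipocytes too.

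Few markers of vessel types were called, against the shares of all genes just given for each depot and temperature. Of 8 lymphatic markers Lyve1 rose under GC at 22 °C in goWAT (2.80 ± 0.48) and, of 6 tested, in scWAT (2.36 ± 0.41), a receptor that tissue macrophages carry too. Vcam1, in the venous list, fell in goWAT at 22 °C (-1.15 ± 0.33) and 13 °C (-1.66 ± 0.32) and in scWAT at 13 °C (-2.05 ± 0.37). Gja4, an arterial gap junction protein, fell in iBAT at 22 °C (-1.88 ± 0.39). Among mural genes, Kcnj8, a potassium channel of pericytes, fell at 22 °C in goWAT (-0.79 ± 0.23) and scWAT (-1.06 ± 0.28), and Cspg4 fell in scWAT at 22 °C (-1.06 ± 0.30) and 13 °C (-1.58 ± 0.31) while Mcam rose (0.99 ± 0.26 and 1.74 ± 0.25). Mcam is also carried by endothelium.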

How the data were processed

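The series measured RNA in 55 laser-captured areas of 3 fat depots. The values are counts of reads per gene that the authors deposited, one table per depot, not normalized. Per the submitters' processing notes, FastQC, GSNAP 2018-07-04 and featureCounts 1.6.3 were used with mm10. Annotation release, strand and multimapping settings were not given in the sources used here. Of 31933 Ensembl IDs 31894 were named through GENCODE M21 (GRCm38), and all 32 members were found.

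Groups follow the labels. Genes were kept by filterByExpr (minimum count 10, minimum total 15), scaled by TMM and tested with edgeR 4.0.16 quasi-likelihood fits (R 4.3.3), 1 fit per depot with 5 contrasts and 1 over all libraries for depots, with Benjamini-Hochberg adjustment over all genes tested. CPM are TMM-scaled. Log2 CPM used a prior count of 0.5. Standard errors come from the F statistic. The fits were also run on simulated counts with planted changes, whose outcome is not given here. Those counts had independent libraries, without shared animals or libraries of mixed tissue, so no call here rests on them. Alternatives were RLE size factors, no filter, DESeq2 1.42.0, limma 3.58.1 voom with library weights, a replicate block, and leaving out libraries singly or in sets. CPM rest on amplified reads without molecular identifiers, so depth limits precision for low genes.

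The members and lists were chosen with earlier results of these data known. Named genes are called members, at most 6 per direction with per-library values, the 2 with the smallest p where none was called, 11 core members, and at most 4 called genes per other list and direction. Other members named beside these were chosen after their values were seen.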

Additional observations from a re-analysis of the deposited data

Results flagged for a closer look

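In gonadal fat at 22 °C, Nos3 had 37.5 CPM in GC replicate 1, while the other 4 GC libraries of that group lay between 17.4 and 20.3 CPM. The gap was large for the group's range by Dixon's test. That library also carried brown adipocyte transcripts, and Nos3 stayed called without it, with a log2 fold change of -1.92.

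In subcutaneous fat at 22 °C, the mean log2 CPM of the 32 endothelial genes was 5.38 in GC replicate 5, and 4.56 to 4.78 in the other 4 GC libraries, a gap large for the group's range by the same test. Chance flags about 1 in 20 groups, and 2 of the 50 groups tested were flagged.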

How the results depend on the processing

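The number of members called was recomputed under each alternative, and no called member changed direction. Here and above, counts under alternatives stand without the share of all genes called under the same setting. They describe how calls depend on processing and are no result about the members. Of the log2 changes of called members within depots, 105 kept and 50 lost their call under other settings, and 275 kept and 111 lost it without 1 library. Between depots 236 kept and 16 lost it under other settings, and 2245 and 65 without 1 library. Where a count moved, the cause was not tested, unless fewer libraries or more genes entered the fit.

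In goWAT, the 6 members called for GC over Ctrl at 22 °C became 1 without the low-quality GC replicates 2 and 4 and 13 without the brown fat-rich libraries, and ran between 2 and 13 without 1 library. Counts of 3 or fewer came without Ctrl replicates 2, 3 or 4 or GC replicate 3, and the 13 without GC replicate 1. Kdr lost its call with RLE size factors (adjusted p = 0.0523), with voom (0.0571), with no filter (0.0571) and without the epididymis-rich libraries (0.0631). The 2 called at 13 °C became 0 with no filter, 7 with DESeq2, 12 with limma-voom and 0 without the epididymis-rich libraries, and ran between 0 and 3 without 1 library. The interaction, 0 by edgeR, gave 1 with DESeq2 and 1 without the brown fat-rich libraries, and between 0 and 1 without 1 library.

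In scWAT, the 6 called at 22 °C became 2 without the macrophage-rich and 3 without the epithelium-rich libraries, and ran between 2 and 7 without 1 library, with 2 left without Ctrl replicate 4 or GC replicate 3 of 22 °C. The 1 called at 13 °C became 2 with DESeq2, 4 with limma-voom and 0 without the epithelium-rich libraries, and ran between 0 and 1. For GC libraries at 13 °C over 22 °C the 5 called became 3 with no filter, 8 with DESeq2, 0 without the macrophage-rich and 0 without the epithelium-rich libraries, and ran between 0 and 10. Cold in Ctrl libraries, 0 by edgeR, gave 1 with DESeq2 and 2 with limma-voom.

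In iBAT, the 1 called at 13 °C became 2 with RLE size factors, 2 with DESeq2, 4 with limma-voom and 0 without the muscle-rich libraries, and ran between 0 and 2 without 1 library. At 22 °C, 0 by edgeR became 2 with DESeq2 and 4 with limma-voom and ran between 0 and 1, with the 1 found without Ctrl replicate 3. Cold in Ctrl libraries gave 1 with DESeq2 and 4 with limma-voom. The GC change between depots at 13 °C gave 1 with limma-voom. Without 1 library, the 18, 16 and 8 called between depots ran between 16 and 21 for iBAT against goWAT, 15 and 18 for iBAT against scWAT, and 3 and 11 for goWAT against scWAT.

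Same-numbered libraries of a depot did not all deviate together (correlations between -0.48 and 0.44, medians near 0). Between depots of 1 condition 16 of 53 same-numbered pairs correlated above 0.1 (median 0.04), against 22 of 202 other pairs (median -0.01). The numbers were not taken as a pairing. With the replicate number as a block, 4 members were called in goWAT at 22 °C, where Esam (adjusted p = 0.0607) and Kdr (0.0899) lost their calls, 0 were called in goWAT at 13 °C, 2 in scWAT at 22 °C, 0 in scWAT at 13 °C and 1 between temperatures in GC scWAT. Depth limits the low members most, Aplnr and Erg in iBAT above all.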
